A study of Homo sapiens with 12 samples.

Results

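Cells of EA.hy926 that carried an estrogen receptor vector were grown as replicate cultures 1, 2 and 3, and culture 1 stood apart from cultures 2 and 3. Receptor culture 1 gave 2 of the 12 arrays of the series, 1 with estradiol and 1 with vehicle. Receptor cultures 2 and 3 gave 4 arrays, and control cells gave the other 6. Culture 1 was picked from these same arrays, because its expression levels lay farthest from those of the other receptor cultures, so its differences are described below without a test. A test was made only of the estradiol response, which played no part in that choice.

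EA.hy926 is a human line made by fusing endothelium of the umbilical vein with lung carcinoma cells, and per the labels it lacks estrogen receptor alpha. Cells were stably transfected with pCMV3-ERalpha (receptor cells). The control cells carried the empty backbone pCDNA 3.1. Both were selected in puromycin, taken as single colonies, kept in serum-free medium for 24 h and given 10 nM estradiol or ethanol vehicle for 16 h, with 3 arrays for each of the 4 combinations. The submitters call the 3 arrays of a group biological replicates. The labels do not say whether cultures 1, 2 and 3 were different colonies or repeat cultures of the same cells, so a colony and a culture cannot be told apart here. Sample titles give only a replicate number, and a culture here means the estradiol and vehicle arrays that share it.

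Stable transfectants are made by drug selection of the few cells that integrate a plasmid, and a colony grown from 1 such cell passes on the expression state and the chromosome content of that cell. EA.hy926 is an aneuploid hybrid, so colonies can differ in both. Interferon-stimulated genes respond together to interferon-activated transcription factors, and cancer-testis antigens are germ cell genes that tumour cells may express.

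Levels below are background-corrected, quantile-normalized log2 intensities of 15007 genes, 1 probe per gene, each detected on at least 2 of the 6 receptor arrays. Culture 1 had the most detected probes, 19747 with estradiol and 19612 with vehicle, against 18441 to 19180 on the 4 arrays of cultures 2 and 3 and 18447 to 19008 on the control arrays. Its median raw intensity was also the highest, 117 with estradiol and 121 with vehicle, against 108 to 112 on the arrays of cultures 2 and 3 and 105 to 112 on the control arrays. The part of this brightness in the differences was not tested. ESR1 encodes the receptor, and its probe was detected on 0 of 12 arrays, so the arrays do not check how much receptor any culture made. The labels report a western blot for it, without values. The array files used here name no chip, so a chip shared by the culture 1 arrays cannot be told apart from the culture.

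A gene was counted when culture 1 differed at least 2-fold from the mean of cultures 2 and 3, with treatment in the fit, and when both culture 1 arrays lay outside the range of the other 4. By this rule 260 of 15007 genes were counted (1.73%), of which 157 were higher (1.05%) and 103 lower (0.686%) in culture 1. Lack of overlap alone, at any size of difference, was common: 5597 genes (37.3%), 2695 of them higher (18%) and 2902 lower (19.3%). The median difference over all genes was -0.01. Of the 260 genes, 193 were at least 2-fold apart in the estradiol arrays and in the vehicle arrays taken separately, 33 were at least 4-fold apart and 8 at least 8-fold. Without culture 2 the same rule counted 439 genes, and without culture 3 it counted 216. In the authors' normalized table, which holds no background correction of this kind, it counted 67.

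**Figure D1:**
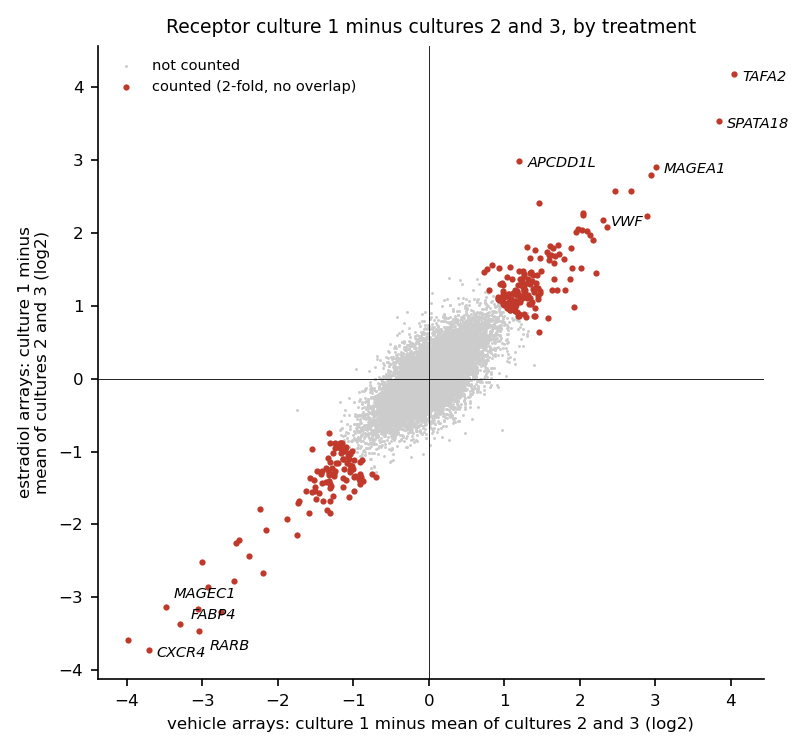
Each point is a gene, placed by the log2 difference between receptor culture 1 and the mean of receptor cultures 2 and 3 in the vehicle arrays (horizontal axis) and in the estradiol arrays (vertical axis). The 260 counted genes (red) lie along the diagonal in both directions, with APCDD1L farthest above it.

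The distances between cultures gave the values by which culture 1 was picked. Culture 1 differed at least 2-fold, the same way in the estradiol and the vehicle arrays, from culture 2 in 156 genes (1.04%) and from culture 3 in 300 genes (2%). Cultures 2 and 3 differed from each other in 35 genes (0.233%), and all 35 were higher in culture 2. None of the 3 pairs of control cultures differed in any gene by this measure (0%). This 0 is a limited reference, because the measure needs the same shift in both arrays of a number. In deviations from group means, those 2 arrays correlated at only 0.08, 0.04 and 0.11 in control cells. In receptor cells they correlated at 0.77, 0.39 and 0.67. The median absolute log2 difference was 0.22 between cultures 1 and 2, 0.28 between cultures 1 and 3 and 0.22 between cultures 2 and 3, against 0.13 to 0.15 between control cultures. By the median, cultures 2 and 3 were thus about as far apart as cultures 1 and 2, and it was the large differences that set culture 1 apart.

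The genes highest in culture 1 included a secreted chemokine-like protein, a p53-inducible mitochondrial quality-control gene, a cancer-testis antigen and the endothelial clotting protein von Willebrand factor. TAFA2, the secreted chemokine-like protein, stood at 8.64 with estradiol and 8.57 with vehicle in culture 1, against 4.45, 4.55, 4.48 and 4.52 in cultures 2 and 3, where its probe was not detected. Control cells ran from 6.72 over a median of 6.90 to 7.03. TAFA2 was therefore at least 13.4-fold higher in culture 1 than in cultures 2 and 3. A bound of this kind sets the mean of the detected side against, per array, the higher of the gene's own level and the lowest level among detected probes. SPATA18, which takes part in the removal of damaged mitochondria, stood at 7.85 with estradiol and 8.24 with vehicle in culture 1, against 4.34, 4.47, 4.30 and 4.31 in cultures 2 and 3. It was at least 9.09-fold higher in culture 1, and the control arrays, at 7.52 to 7.66, lay close to culture 1. MAGEA1, an X-linked antigen normally confined to germ cells, had 9.09 and 9.21 in culture 1, against 6.16, 6.28, 6.19 and 6.12 in cultures 2 and 3 and 8.35 to 8.56 in control cells, a difference of 2.96 ± 0.12 (SE of the fit over 6 arrays). Its family holds near-identical copies that a probe may not separate. The SE of this and the following differences reflects the spread between arrays, not between independent colonies.

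UCHL1, a ubiquitin hydrolase abundant in neurons, followed the same pattern at high signal. It had 11.63 with estradiol and 11.39 with vehicle in culture 1, against 8.99, 8.91, 9.11 and 8.95 in cultures 2 and 3, and 11.73 to 11.94 in control cells, a difference of 2.52 ± 0.12 (SE). PRTFDC1, a relative of the purine salvage enzyme HPRT1, was at least 5.87-fold higher in culture 1, at 7.45 and 7.38, against 4.85, 4.63, 4.89 and 4.79 in cultures 2 and 3, with control cells at 6.84 to 7.24. FAM174B was at least 5.23-fold higher in culture 1, at 7.20 and 7.30 against 4.41, 4.41, 4.40 and 4.31, and higher still in control cells, at 8.28 to 8.53. In these 3 genes cultures 2 and 3 lay farther from the control level than culture 1.

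Some genes were high in culture 1 alone. LDB2, a cofactor of LIM-domain transcription factors, had 7.09 with estradiol and 7.84 with vehicle in culture 1, against 4.88, 5.19, 4.83 and 4.71 in cultures 2 and 3 and 4.70 to 5.24 in control cells, a difference of 2.57 ± 0.19 (SE). TNC, the matrix glycoprotein tenascin C, had 7.54 and 7.41 in culture 1, against 5.52, 5.49, 5.48 and 5.28 in cultures 2 and 3 and 5.01 to 5.24 in control cells. CSF2, the cytokine GM-CSF, had 7.87 and 8.0 in culture 1, against 6.05, 5.48, 5.88 and 6.16 in cultures 2 and 3 and 5.17 to 5.99 in control cells. For all 3 genes the range of the control arrays overlapped or lay below that of cultures 2 and 3. The long noncoding RNA LINC01602, in contrast, was also high in control cells, at 6.20 to 6.66. It had 6.96 and 6.82 in culture 1, against 4.84, 4.71, 4.58 and 4.86 in cultures 2 and 3, where it was not detected. It was at least 4.08-fold higher in culture 1 than there. GLT8D2 (2.22), ANO3 (2.06) and CMTM8 (2.05) by log2 difference, MS4A6E, at least 3.29-fold higher and not detected in cultures 2 and 3, and VWF and APCDD1L were the others of the 15 highest. TNC was named as a matrix gene.

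The genes lowest in culture 1 included a chemokine receptor, a fatty acid carrier, a second cancer-testis antigen and a retinoic acid receptor. CXCR4, the receptor of the chemokine CXCL12, was not detected in culture 1, at 4.27 with estradiol and 4.30 with vehicle, against 7.73, 7.67, 8.27 and 8.34 in cultures 2 and 3. Control cells stood at 7.02, 7.28 and 7.57 (lowest, median and highest), so CXCR4 was at least 9.14-fold lower in culture 1 than in the other receptor cultures. Culture 1 was the only receptor culture below the control level. FABP4, an intracellular fatty acid carrier of adipocytes and endothelium, had 5.41 and 5.52 in culture 1, against 8.83, 8.57, 8.71 and 9.04 in cultures 2 and 3 and 7.32 to 7.73 in control cells, a difference of -3.32 ± 0.16 (SE). RARB, retinoic acid receptor beta, had 4.70 and 5.17 in culture 1, against 8.06, 8.23, 8.27 and 8.19 in cultures 2 and 3 and 9.08 to 9.41 in control cells. Its difference was -3.26 ± 0.15 (SE), and only 1 of the 2 culture 1 arrays detected it. CCL23, a CC chemokine, was lower in every receptor culture than in control cells and lowest in culture 1, with 5.58 and 6.27 there, against 8.68, 9.19, 8.80 and 9.46 in cultures 2 and 3 and 11.87 to 12.21 in control cells. The neighbouring chemokine genes CCL14 and CCL15 stood at 4.44 to 5.47 on the receptor arrays, against 8.11 to 9.35 on the control arrays. CCL14 was not detected in culture 1 and was at least 1.20-fold lower there than in cultures 2 and 3, and CCL15 differed by -0.53.

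A further set was high in cultures 2 and 3 and near the control level in culture 1. MAGEC1, another X-linked cancer-testis antigen, was not detected in culture 1, at 4.80 and 4.65, against 7.89, 8.06, 7.97 and 8.20 in cultures 2 and 3, at least 9.30-fold lower. Control cells stood at 4.41 to 4.95, and 3 of the 6 arrays detected it there. MAGEC1 and MAGEA1 thus lay on opposite sides in the same cultures. FOXS1, a forkhead transcription factor, had 5.46 and 4.91 in culture 1, against 7.90, 7.87, 8.03 and 7.95 in cultures 2 and 3, and was detected on 0 of 6 control arrays. IL23R, a subunit of the interleukin 23 receptor, was not detected in culture 1 or in control cells and stood at 6.63, 6.45, 6.66 and 6.68 in cultures 2 and 3, at least 3.47-fold lower in culture 1. ELAPOR2 behaved alike and was at least 5.03-fold lower. PXDN, a peroxidase that cross-links collagen IV, had 5.86 and 5.98 in culture 1, against 9.0, 9.08, 9.12 and 8.37 in cultures 2 and 3 and 7.72 to 8.19 in control cells, so culture 1 lay below and cultures 2 and 3 above the controls. ZPLD1, FSTL5, DPYSL4 and TMPRSS15, with differences of -2.68 to -2.01, were also among the 15 lowest. MGARP and PCDHB2 completed them, and as neither was detected in culture 1 they were at least 4.71-fold and 3.12-fold lower there. ZPLD1 belonged to the set above, with means of 6.73 in culture 1, 9.41 in cultures 2 and 3 and 6.36 in control cells. FSTL5, DPYSL4, TMPRSS15, MGARP and PCDHB2 did not. In each of them culture 1 lay farther from the control mean than cultures 2 and 3 did.

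**Figure D2:**
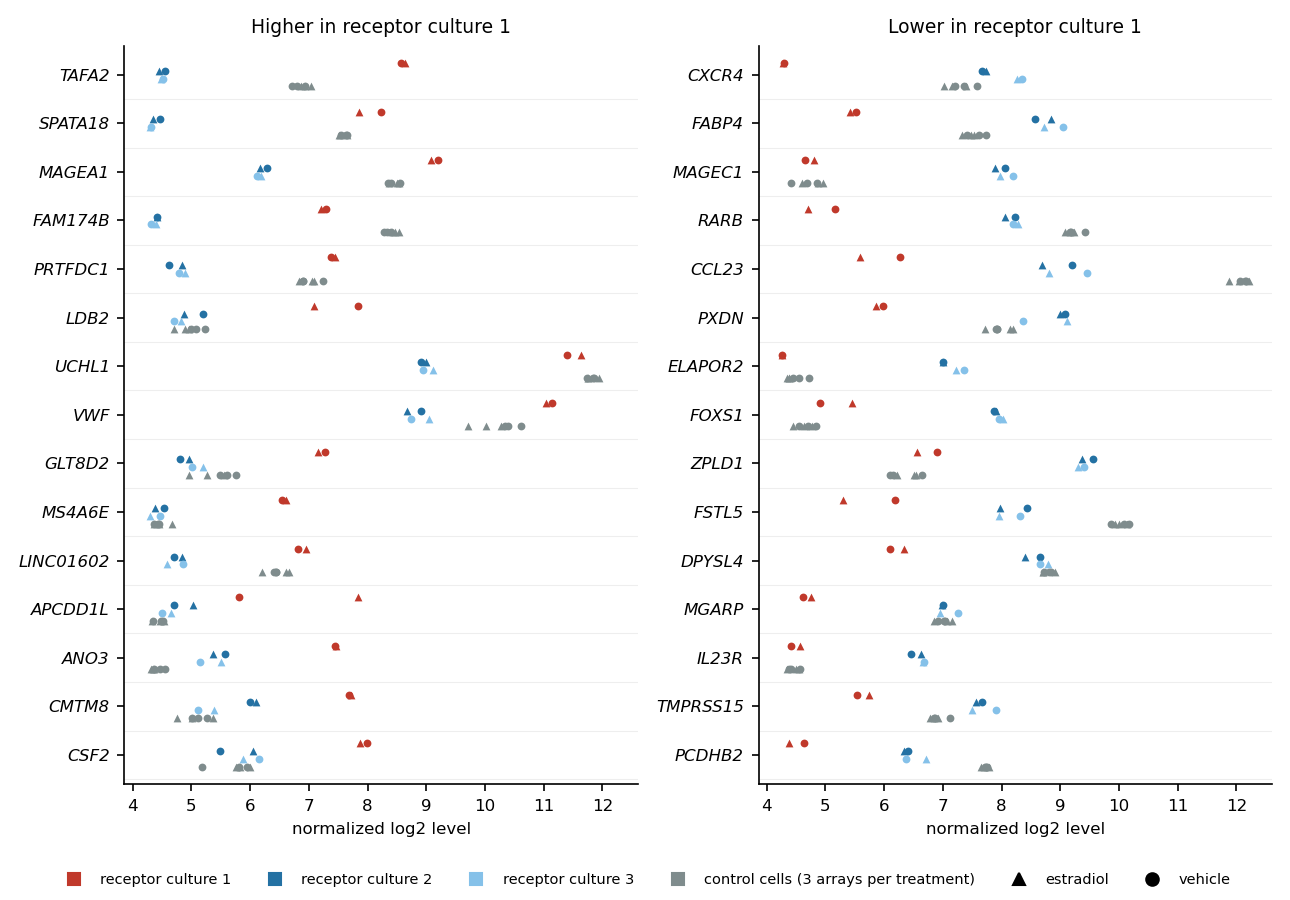
Normalized log2 levels (horizontal axis) of the 15 genes highest and the 15 lowest in receptor culture 1, 1 symbol per array, with receptor culture 1 in red, cultures 2 and 3 in blue, control cells in grey, triangles for estradiol and circles for vehicle. Control cells lie near culture 1 for genes such as SPATA18 and MAGEC1 and near cultures 2 and 3 for genes such as LDB2 and MGARP.

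Over all 260 counted genes, the mean of the 6 control arrays lay nearer culture 1 for 89 genes and nearer cultures 2 and 3 for 171. Among the 157 genes higher in culture 1 the controls were nearer culture 1 for 49 and nearer cultures 2 and 3 for 108. Among the 103 lower genes the split was 40 against 63. For 103 of the 260 genes the control mean lay outside the span between the 2 receptor means. The counted genes thus mixed genes in which culture 1 departed from the controls with genes in which cultures 2 and 3 did.

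Some genes passed between detected and not detected. A total of 22 counted genes were detected on both culture 1 arrays and on none of the 4 arrays of cultures 2 and 3, and 11 of them were detected on all 6 control arrays and 7 on none. Another 18 were detected on all 4 arrays of cultures 2 and 3 and on neither culture 1 array, with 12 of them on all control arrays and 2 on none. The following examples were chosen after their values were seen. SLCO1B3, a liver-type organic anion transporter, had 6.38 and 6.29 in culture 1, against 4.35, 4.36, 4.30 and 4.28 in cultures 2 and 3, and at least a 2.78-fold higher level, with no control array detecting it. NR2E3, an orphan nuclear receptor of photoreceptors, was at least 2.39-fold higher, also with no control array detecting it. MATN2, a matrix protein, was not detected in culture 1 but stood at 5.63 to 5.95 in cultures 2 and 3 and 5.95 to 6.17 in control cells.

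Genes just at the 2-fold rule show how fine the line was. Just inside lay CXXC5 at a log2 difference of 1.002, LOC644511 at -1.002, ABHD17C and HLA-H at 1.004 each, and AKR1B1 at -1.007. Just outside lay RHOBTB1 and SCARA3 at 0.999 each, DYDC2 and FSTL3 at -0.995 each, and CTSV at 0.993.

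Interferon-stimulated genes were higher in culture 1 than in cultures 2 and 3, and in culture 1 most of them stood nearer the level of the control cells. Of 37 such genes measured, 9 were counted higher and 0 lower. In 32 both culture 1 arrays lay above all 4 arrays of cultures 2 and 3. Over all genes 1.05% were counted higher, and 18% were higher without overlap. Their median difference was 0.71, against -0.01 over all genes. For 33 of the 37 the control mean lay nearer culture 1. OAS2, which makes the 2-5A messenger that activates RNase L, had 11.21 with estradiol and 11.38 with vehicle in culture 1, against 9.36, 9.76, 9.38 and 9.58 in cultures 2 and 3, a difference of 1.77 ± 0.12 (SE). Control cells stood at 10.85, 11.16 and 11.36 (lowest, median and highest). IFI44L, an interferon-induced protein, had 10.00 and 10.33 in culture 1, against 8.42, 8.68, 8.33 and 8.79 in cultures 2 and 3 and 10.13 to 10.62 in control cells. Neither range of culture 1 overlapped that of cultures 2 and 3, and both overlapped that of the controls.

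IFIT1, which binds viral RNA lacking cap methylation, had 9.90 and 10.14 in culture 1, against 8.20, 8.77, 8.30 and 8.58 in cultures 2 and 3 and 10.35 to 10.91 in control cells. BST2, the membrane tether of budding virus, had 7.28 and 7.45 in culture 1, against 6.15, 6.12, 5.81 and 6.10 in cultures 2 and 3 and 7.55 to 7.93 in control cells. OAS3 (1.34), MX2 (1.32), PARP9 (1.27), IFI6 (1.20) and IFITM1 (1.08) were the other counted members, by log2 difference, and all but the first 3 counted members of the list are named here after their values were seen. IFITM1 has close copies in IFITM2 and IFITM3, whose differences were 0.08 and 0.15. OASL was the exception, lower in culture 1 without overlap (difference -0.59). The mean level of the 37 genes was 9.12 with estradiol and 9.24 with vehicle in culture 1, between 8.39 and 8.55 in cultures 2 and 3, and between 9.30 and 9.53 in control cells. With the mean of a gene's probes, and again in the authors' normalized table, 32 genes were higher without overlap.

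**Figure D3:**
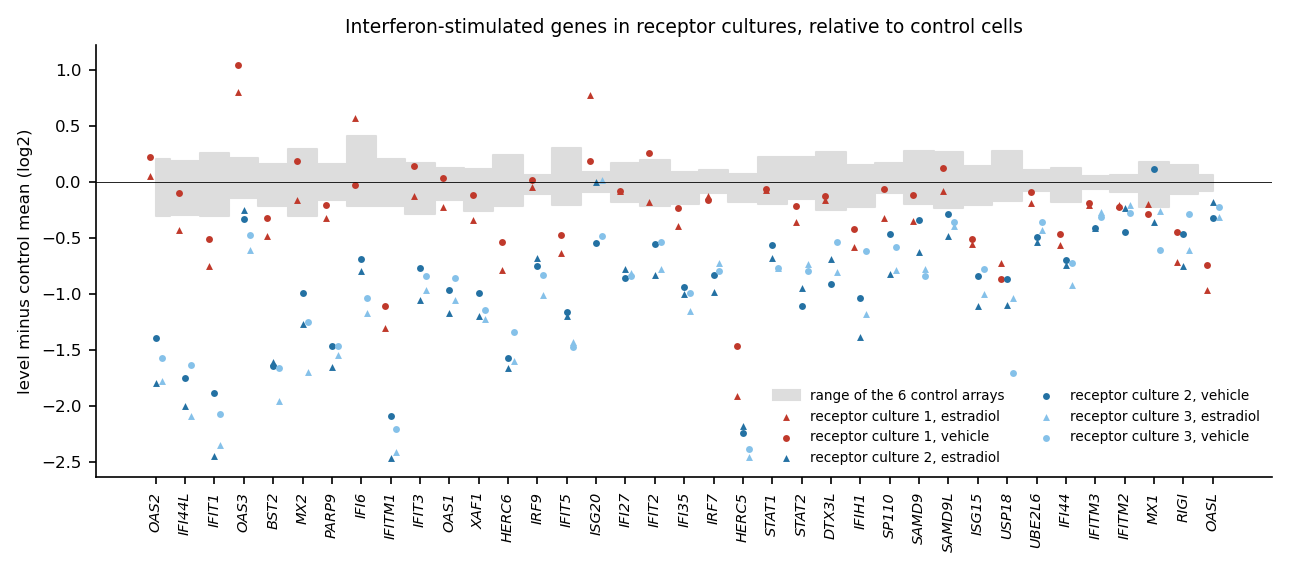
Log2 level minus the control mean (vertical axis) for 37 interferon-stimulated genes, ordered by the difference of receptor culture 1 from cultures 2 and 3, with 1 symbol per receptor array and the range of the 6 control arrays as a grey band. Culture 1 (red) lies above cultures 2 and 3 (blue) for 32 genes without overlap and below them for OASL.

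The proximal promoters of these genes are shown because many carry the DNA element read by interferon-activated factors of the IRF and STAT families. The element was searched as GAAANNGAAA, on both strands (TTTCNNTTTC on the printed strand), in the 250 bases before each gene start of the RefSeq promoters (GRCh38.p14). It was found in 16 of the 29 measured interferon-stimulated genes with a promoter in that table (55.2%), and in 6 of the 7 counted ones. The share was 2.39% for the 9497 measured genes with a promoter (227 genes) and 3.07% for all 27305 promoters (839). Matches may overlap, as both do in BST2. Of the 7, PARP9 held no match in this window. The promoters of 4 members follow, each read 5′ to 3′ in the gene's direction, with matches in capitals.
IFI44L (chr1:78620198-78620447, plus strand): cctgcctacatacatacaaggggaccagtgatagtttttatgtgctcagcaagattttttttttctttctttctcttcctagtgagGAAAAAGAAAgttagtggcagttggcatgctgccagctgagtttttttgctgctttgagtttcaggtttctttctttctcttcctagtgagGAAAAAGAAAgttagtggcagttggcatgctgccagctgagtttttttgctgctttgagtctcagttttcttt
IFIT1 (chr10:89392373-89392622, plus strand): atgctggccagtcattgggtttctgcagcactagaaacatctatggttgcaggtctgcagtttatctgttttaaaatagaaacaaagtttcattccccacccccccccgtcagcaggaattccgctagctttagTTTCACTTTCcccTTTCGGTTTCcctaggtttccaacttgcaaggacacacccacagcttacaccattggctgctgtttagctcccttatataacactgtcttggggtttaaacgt
BST2 (chr19:17405631-17405880, minus strand): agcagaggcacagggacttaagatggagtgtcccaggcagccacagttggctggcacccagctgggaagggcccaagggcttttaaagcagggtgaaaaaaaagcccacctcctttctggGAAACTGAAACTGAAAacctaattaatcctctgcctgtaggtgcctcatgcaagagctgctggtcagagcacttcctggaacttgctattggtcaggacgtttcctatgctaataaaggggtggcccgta
IFI6 (chr1:27672193-27672442, minus strand): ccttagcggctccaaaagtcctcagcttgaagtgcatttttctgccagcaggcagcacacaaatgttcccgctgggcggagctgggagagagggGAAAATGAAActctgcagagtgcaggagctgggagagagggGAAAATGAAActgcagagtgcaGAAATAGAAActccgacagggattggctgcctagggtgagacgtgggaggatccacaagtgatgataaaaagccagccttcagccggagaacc

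IFI44L holds the element within a stretch that occurs in duplicate, and IFI6 holds 3 matches. A match is a string of letters and not evidence of binding in these cells. The CpG content of the same window was lower in counted genes than in measured genes at large, with a median of 14 CpG dinucleotides over 161 counted genes with a promoter, against 21 over 9497 measured genes. For the genes that passed between detected and not detected it was 14.5 over 26 genes.

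Class I antigen presentation genes, which display peptides at the cell surface and are also interferon-inducible, did not share the relation to the controls. Of 20 measured, 2 were counted higher and 0 lower in culture 1, and the median difference was 0.37. Without overlap 14 were higher and 1 was lower, against 18% higher and 19.3% lower over all genes. HLA-B had 8.54 and 8.66 in culture 1, against 7.30, 7.06, 7.39 and 7.48 in cultures 2 and 3 and 6.44 to 6.99 in control cells, so culture 1 lay above both. The controls were nearer culture 1 for 6 of the 20 genes only. HLA-G, the other counted gene, was detected on both culture 1 arrays, on both arrays of culture 2 and on neither array of culture 3. Probes for class I genes are open to cross-hybridisation among their near-identical copies, so these values are uncertain as to the gene. B2M, the invariant light chain of class I molecules and no such copy, had 12.90 and 13.03 in culture 1, against 12.41, 12.52, 12.02 and 12.01 in cultures 2 and 3 and 12.22 to 12.46 in control cells.

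Most endothelial genes were higher in culture 1 than in cultures 2 and 3. Of those measured, KDR and PLVAP were detected on none of the 4 arrays of cultures 2 and 3. They passed the detection filter only through the 2 culture 1 arrays, so their direction adds no support. Both remain in the counts and the median below. Of 27 measured, 2 were counted higher and 0 lower, and the median difference was 0.40. Without overlap 13 were higher and 0 lower, against 18% higher and 19.3% lower over all genes. For 19 of the 27 the control mean lay nearer culture 1. The mean level of the 27 genes was 9.25 with estradiol and 9.29 with vehicle in culture 1. It lay between 8.73 and 8.87 in cultures 2 and 3 and between 9.21 and 9.39 in control cells. VWF, the platelet-binding clotting protein stored by endothelial cells, had 11.04 with estradiol and 11.14 with vehicle in culture 1, against 8.67, 8.91, 9.05 and 8.75 in cultures 2 and 3, a difference of 2.24 ± 0.15 (SE). The control arrays ran from 9.71 over a median of 10.31 to 10.62, between both. MMRN1, the factor V carrier multimerin 1, had 8.65 and 8.76 in culture 1, against 6.75, 7.02, 6.96 and 6.73 in cultures 2 and 3 and 9.47 to 9.92 in control cells. The pan-endothelial adhesion genes differed less: PECAM1 differed by 0.60 ± 0.14 (SE) without overlap, and CDH5, at 12.52 and 12.48 in culture 1, against 12.29 to 12.62 in cultures 2 and 3, overlapped. NOS3, the endothelial nitric oxide synthase, also overlapped, with a difference of 0.18. In bulk RNA more cells of a kind and more RNA per cell cannot be told apart.

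Markers of other cell types gave no single picture. Among 13 epithelial genes measured, LAMB3 and EPCAM were counted higher and KRT7 lower, with a median of -0.24. Without overlap 2 were higher and 7 lower, against 18% higher and 19.3% lower over all genes. KRT7, a keratin of simple epithelia, had 10.21 and 10.31 in culture 1, against 11.66, 11.57, 11.66 and 11.65 in cultures 2 and 3, and control cells, at 10.43 to 10.61, were near culture 1. EPCAM differed within cultures 2 and 3 as well, with 6.45 and 6.18 in culture 1, 5.93 and 5.48 in culture 2 and 4.92 and 4.86 in culture 3. None of 10 mesenchymal and 8 leukocyte markers measured was counted, with medians of 0.05 and 0.11. Without overlap, 3 mesenchymal markers were higher and 0 lower, and 4 leukocyte markers were higher and 0 lower, against 18% higher over all genes. The mean level of the leukocyte markers was 5.79 and 5.75 in culture 1 and between 5.52 and 5.72 in cultures 2 and 3, and between 5.39 and 5.52 in control cells. The part of other cell types in the differences was not tested.

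Matrix and cytokine genes supplied further high members. Of 42 matrix, integrin and protease genes measured, TNC, BGN, MMP1 and LOX were counted higher and 0 lower, and the median was 0.22. Without overlap 15 were higher and 0 lower, against 18% higher and 19.3% lower over all genes. BGN, the small proteoglycan biglycan, had 12.44 and 12.51 in culture 1, against 10.52, 10.88, 10.97 and 10.91 in cultures 2 and 3 and 10.52 to 10.76 in control cells. MMP1, interstitial collagenase, spread more, with 9.81 with estradiol and 10.92 with vehicle in culture 1, against 9.10, 9.55, 8.55 and 8.46 in cultures 2 and 3. Among 22 adhesion, chemokine and NF-kB target genes, CSF2, IL1A and IL1B were counted higher and 0 lower. Without overlap 4 were higher and 4 lower, which is near the shares over all genes. IL1A, the cytokine interleukin 1 alpha, had 7.50 and 8.05 in culture 1, against 6.26, 6.14, 6.31 and 6.70 in cultures 2 and 3 and 5.81 to 6.28 in control cells. The leukocyte adhesion genes ICAM1 and SELE stood between 4.59 and 5.19 on all receptor arrays, with differences of 0.12 and -0.02, and VCAM1 was not measured above the filter.

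Smaller groups followed. GIMAP genes encode GTPases of lymphocytes and endothelium. All 6 measured had a positive difference, with a median of 0.67, and 4 were higher and 0 lower without overlap. GIMAP4 had 9.22 and 9.89 in culture 1, against 7.62, 7.88, 7.79 and 7.87 in cultures 2 and 3, within or above the control range of 8.98 to 9.37. GIMAP7 had 6.33 and 6.93 in culture 1, against 5.28, 5.28, 4.92 and 5.19, and all receptor cultures lay below the controls at 8.55 to 9.22. Of 27 genes of vascular tone and clotting, PTGS1 (cyclooxygenase 1), F2RL1 (protease-activated receptor 2) and EDNRB (endothelin receptor B) were counted higher, by 1.34, 1.28 and 1.21. Without overlap 13 of the 27 were higher and 5 lower. SERPINB2, the plasminogen activator inhibitor 2, was higher by 1.83 (1 of 15 cystatins and serpins), and DUSP6, a phosphatase that switches off ERK, by 1.32 (1 of 23 immediate early genes). SPATA18 was the 1 counted gene of 25 p53 targets. Of 23 NRF2 targets, the efflux pump ABCC3 was higher by 1.01 and AKR1B1 was lower. RARB and AKR1B1 were the lower members of 21 retinoid and aldehyde genes. Among 26 ATF4 targets 1 was counted, ASNS, asparagine synthetase, which had a difference of -1.03, with 1 array of culture 2 at 8.18 close to the culture 1 arrays at 7.79 and 7.87. Members higher and lower without overlap were 5 and 1 for cystatins and serpins and 6 and 4 for immediate early genes. They were 9 and 4 for p53 targets and 4 and 8 for NRF2 targets. For the retinoid and aldehyde genes they were 3 and 7, and for ATF4 targets 6 and 8.

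Few proliferation genes were counted, though mitotic genes and clustered histone genes leaned lower in culture 1 than in cultures 2 and 3. By mean level the control cells were lower still in both lists. None of 31 mitotic genes was counted, 1 was higher and 9 lower without overlap, and the median was -0.17. Over all genes 1.73% were counted, and 18% were higher and 19.3% lower without overlap. The mean level of the mitotic genes was 8.89 with estradiol and 8.71 with vehicle in culture 1, so the lean was larger in the vehicle array. It lay between 8.90 and 8.98 in cultures 2 and 3 and between 8.45 and 8.57 in control cells. For 23 of the 31 the control mean lay nearer culture 1. MKI67, the proliferation antigen Ki-67, differed by -0.27 and CCND1, cyclin D1, by -0.27. Of 37 replication genes only CCNE1, cyclin E1, was counted, with 6.14 and 6.20 in culture 1, against 7.34, 7.37, 7.55 and 7.54 in cultures 2 and 3 and 7.55 to 7.78 in control cells. Of 13 clustered histone genes 0 were counted, 8 were lower and 0 higher without overlap, and the median was -0.45. Their mean level was 7.39 with estradiol and 7.26 with vehicle in culture 1. It lay between 7.65 and 7.82 in cultures 2 and 3 and between 7.06 and 7.23 in control cells. For 11 of the 13 the control mean lay nearer culture 1. Among 16 common reference genes 0 were counted, and their median was 0.05, with differences from -0.50 to 0.86. Without overlap 6 of them were higher and 3 lower, so they were not all steady. With 1.73% counted over all genes, a list this short can easily hold 0 counted genes. None was counted among the measured genes of 9 more lists: cholesterol and fatty acid synthesis (28), the unfolded protein response (19), hypoxia and glycolysis (30), TGF-beta and BMP targets (21), angiogenic and Notch genes (29), insulin-like growth factor genes (9), nuclear receptors and cofactors (18), ribosomal proteins (29) and oxidative phosphorylation (32). BMP4, a bone morphogenetic protein, was lower in culture 1 by less than the threshold, with a difference of -0.69.

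Culture 1 also differed in the median of some chromosomes, though on several of these only part of the chromosome was shifted. Chromosome 19 stood out: the median difference of its 782 measured genes was -0.26. Without overlap 58 of them were higher and 377 lower, against 18% higher and 19.3% lower over all genes. On this chromosome 6 genes were counted higher and 9 lower, a share of 1.92%, near the 1.73% over all genes. Relative to the control cells the chromosome 19 median was -0.30 in culture 1, -0.07 in culture 2 and 0.00 in culture 3. Chromosome 16 (-0.12, 556 genes) and chromosome 20 (-0.10, 345 genes) were also lower. Chromosome 18 (0.17, 163 genes), chromosome 12 (0.12, 657 genes) and chromosome 4 (0.10, 405 genes) were higher. On chromosome 4 every receptor culture lay below the controls, by a median of -0.10 in culture 1, -0.20 in culture 2 and -0.21 in culture 3. Chromosomes 17 and 22 had medians of -0.01 and 0.00.

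In blocks of 51 neighbouring measured genes, 225 in all by the gene order of the RefSeq table, the median difference was 0.00, with the 10th percentile at -0.13 and the 90th at 0.13. Control cultures against each other never exceeded 0.08 in absolute size. Chromosome 16 was low from ZNF75A to GPT2, with block medians of -0.36, -0.34, -0.36 and -0.23. The block after these was at 0.02. Chromosome 4 was high from ZNF718 to UGT2B7, at 0.32, 0.38 and 0.19, and its next block was at -0.04. Chromosome 12 began with blocks at -0.13 and -0.06 and reached 0.32 from ZC3H10 to CTDSP2. These stretches were picked after their values were seen. The lowest blocks were BCAT2 to JOSD2 (-0.38) and PLIN5 to TIMM44 (-0.36) on chromosome 19 and ZNF75A to CPPED1 (-0.36) on chromosome 16. In the block from BCAT2 to JOSD2 the median against control cells was -0.38 with estradiol and -0.37 with vehicle in culture 1, against -0.08 in culture 2 and -0.01 in culture 3. The highest were ZNF514 to TGFBRAP1 on chromosome 2 (0.42), KIAA0232 to TMEM156 on chromosome 4 (0.38) and PRDX1 to YIPF1 on chromosome 1 (0.33). Against control cells the chromosome 1 block was 0.30 in culture 1, -0.09 in culture 2 and -0.03 in culture 3. The chromosome 4 block was 0.02 in culture 1, -0.24 in culture 2 and -0.33 in culture 3. In the named blocks of chromosomes 19, 16 and 1 culture 1 lay farther from the controls, and in the named block of chromosome 4 cultures 2 and 3 did. Elsewhere on chromosome 4, from KLHL8 to MCUB, all 3 cultures were low, at -0.26 in culture 1, -0.24 in culture 2 and -0.20 in culture 3, a block picked after its values were seen. The first blocks of chromosome 10, ZMYND11 to RSU1 and CUBN to ZNF33A, were low in all 3 receptor cultures, at -0.40 and -0.27 in culture 1, -0.49 and -0.44 in culture 2 and -0.46 in both blocks in culture 3. They were looked at after the values had been plotted. Expression alone does not show the number of chromosome copies, which was not measured.

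**Figure D4:**
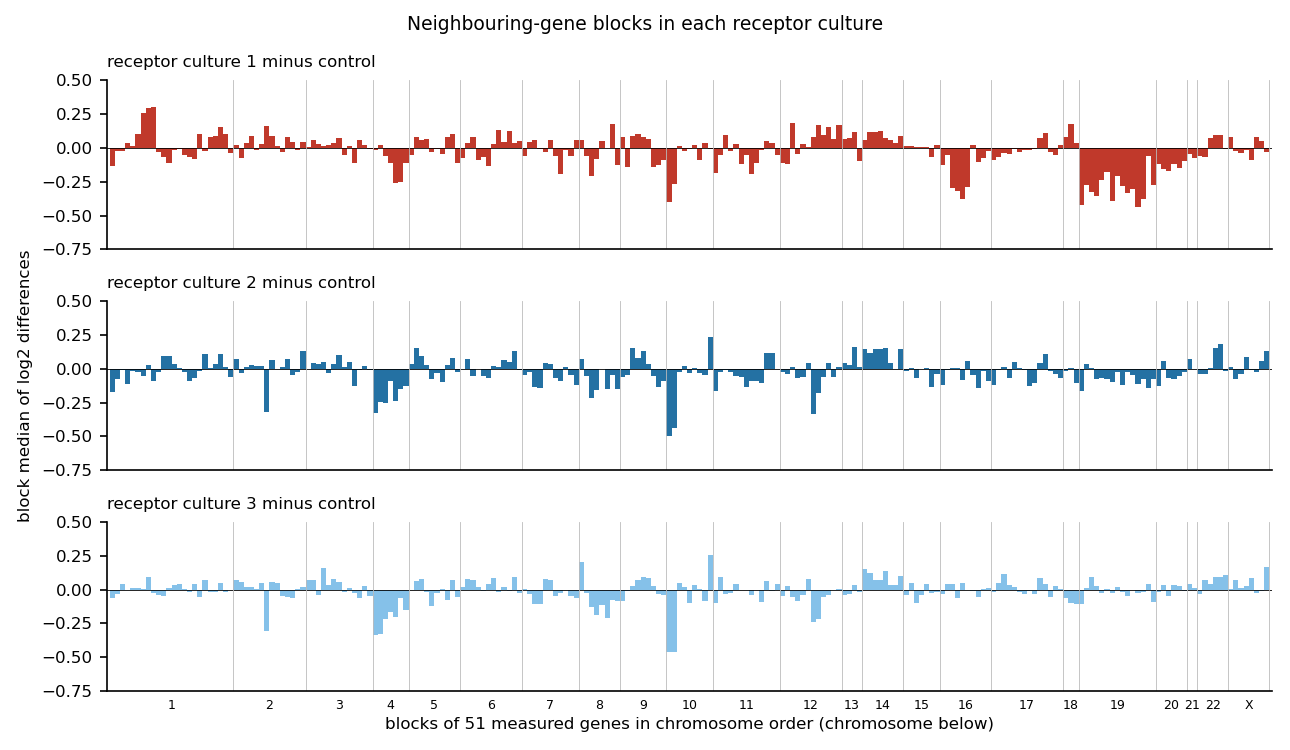
Median log2 difference from the mean of the control arrays (vertical axis) in 225 blocks of 51 neighbouring measured genes, in chromosome order (horizontal axis), for receptor cultures 1, 2 and 3 from top to bottom. All blocks of chromosomes 19 and 20 and most of those of chromosome 16 lie below 0 in culture 1, and the first blocks of chromosome 10 lie below 0 in all 3 cultures.

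Counted genes also lay side by side in 2 places, picked here from their values. On chromosome 2, in the highest block, 19 neighbouring measured genes from MGAT4A to SNORD89 were all higher in culture 1, 18 of them without overlap and 8 counted (MGAT4A, MITD1, TXNDC9, AFF3, NPAS2, TBC1D8, RNF149 and SNORD89). Their median was 0.84 for culture 1 over cultures 2 and 3, and against control cells it was 0.37 in culture 1 and -0.54 in cultures 2 and 3. RNF149, a ubiquitin ligase and the host gene of SNORD89, had 11.04 and 11.10 in culture 1, against 9.76, 9.63, 9.70 and 9.72 in cultures 2 and 3 and 10.06 to 10.33 in control cells. AFF3, a nuclear protein of the AF4 family, had 6.36 and 6.03 in culture 1 and was not detected in cultures 2 and 3, at least 2.52-fold higher. RPL31, a ribosomal protein gene within the run, was higher by 0.52. On chromosome 11 the embryonic and fetal globin genes HBG1, HBG2 and HBE1 and the olfactory receptor genes OR51B4 and OR51B5 beside them were all counted lower in culture 1. HBE1, embryonic epsilon globin, had 9.83 on both culture 1 arrays, against 11.34, 11.11, 11.17 and 11.28 in cultures 2 and 3 and 10.09 to 10.38 in control cells. OR51B4 had 6.98 and 7.04 in culture 1, against 8.45, 8.50, 8.61 and 8.66 in cultures 2 and 3 and 6.84 to 7.31 in control cells. Probes for HBG1 and HBG2 may not separate these near-identical copies.

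Whether culture 1 responded differently to estradiol was the question open to a test. No gene of 15007 passed an adjusted p under 0.05 (0%) in limma's test of the difference in response over all 12 arrays, and 374 genes (2.49%) had an unadjusted p under 0.05. With the replicate number as a block the counts were again 0 and 681 (4.54%). Each response rested on 1 pair of arrays in culture 1 and 2 pairs in cultures 2 and 3, and a miss of the threshold does not show that the cultures responded alike.

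The smallest p belonged to LINC00324, a long noncoding RNA. It stood at 5.44 with estradiol and 6.43 with vehicle in culture 1, 6.06 and 5.48 in culture 2, 6.22 and 5.45 in culture 3, and 6.12 to 6.44 in control cells. Its level was lower with estradiol than with vehicle in culture 1 and higher in cultures 2 and 3, by -0.99, 0.58 and 0.77. The difference of -1.66 ± 0.22 (SE) had an adjusted p of 0.185 in limma (0.122 to 0.71 over the alternatives), and the difference was -0.68 in the authors' normalized table. APCDD1L came next. It stood at 7.83 with estradiol and 5.80 with vehicle in culture 1, 5.02 and 4.71 in culture 2, and 4.66 and 4.50 in culture 3, and was detected on 1 of the 4 arrays of cultures 2 and 3 and on no control array. Its estradiol array minus its vehicle array was 2.03 in culture 1, 0.31 in culture 2 and 0.16 in culture 3. The difference in response was 1.79 ± 0.25 (SE) with an adjusted p of 0.185 in limma. With cultures 2 and 3 near the detection limit, this size is no exact fold. Over the alternatives its adjusted p ran from 0.00756 to 0.653, and it was the 1 gene called without background correction (0.0468), in the authors' normalized table (0.0430) and with a larger offset (0.00756). CST1, cystatin SN, stood at 10.04 with estradiol and 7.78 with vehicle in culture 1, 10.43 and 9.41 in culture 2, 10.50 and 9.65 in culture 3, and 13.05 to 13.35 in control cells. Its response was 2.26, 1.02 and 0.85 in cultures 1, 2 and 3, and the difference of 1.32 ± 0.21 (SE) had an adjusted p of 0.329 (0.104 to 1.00 over the alternatives). The vehicle array of culture 1 was the lowest of the 6 receptor arrays, while the estradiol arrays of the 3 cultures were closer together. The next smallest p each way belonged to placeholder symbols, LOC646296 (0.86), LOC642769 (-1.23) and LOC647070 (-0.95), each near the detection limit and with an adjusted p of 1.00.

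The 11 genes with the clearest estradiol induction in receptor cells, a list drawn up from these same arrays, were induced in all 3 cultures. VASN, an inhibitor of TGF-beta signalling, responded by 3.14 in culture 1, 2.11 in culture 2 and 1.98 in culture 3, with 0.02 in control cells. The difference was 1.09 ± 0.26 (SE), with an adjusted p of 1.00 in limma, and it lay in the vehicle level, 5.24 in culture 1, against 6.09 in culture 2 and 6.31 in culture 3. The estradiol levels were 8.38, 8.20 and 8.29 in cultures 1, 2 and 3. INPP4B, a phosphoinositide phosphatase, responded by 1.75, 1.28 and 1.09 in cultures 1, 2 and 3, and SMOX, spermine oxidase, by 1.59, 1.26 and 1.28. The response of culture 1 was the highest of the 3 for 8 of the 11 genes, in the middle for 2 and the lowest for 1, OLFML3, at 2.04, against 2.21 in culture 2 and 2.87 in culture 3. The difference in response was positive for 9 of 11 genes and passed the threshold for 0.

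**Figure D5:**
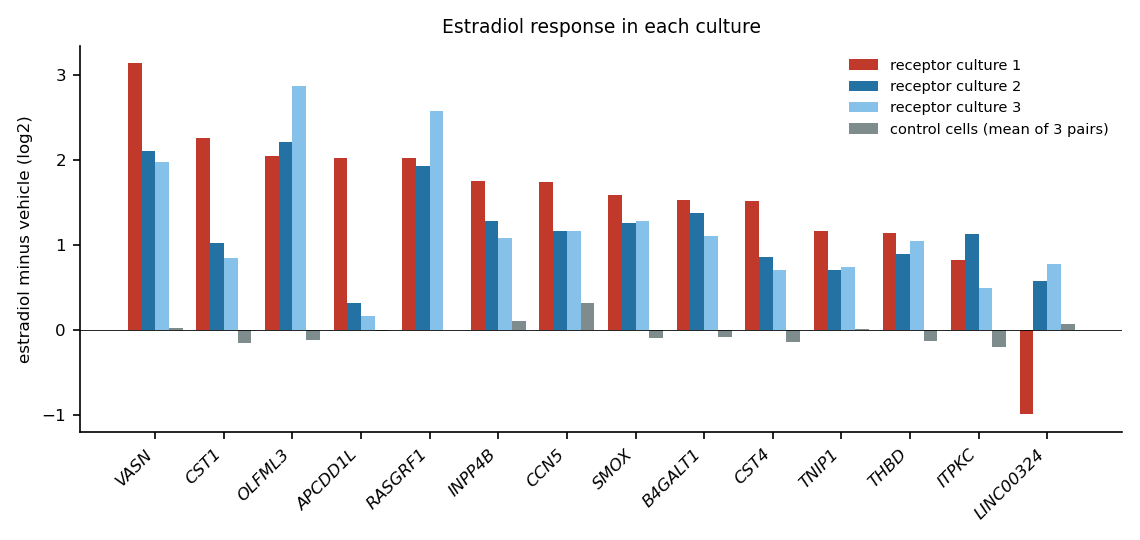
Estradiol minus vehicle log2 level (vertical axis) for the 11 estradiol-induced genes, APCDD1L, CST1 and LINC00324, with a bar for each receptor culture, from 1 pair of arrays, and a bar for the mean of control cells. Culture 1 (red) has the tallest bar for 8 of the 11 induced genes and for APCDD1L and CST1, and a bar below 0 for LINC00324.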

How the data were processed

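RNA of 12 samples was hybridised to Illumina BeadChips. The deposited non-normalized file held an intensity and a detection p-value per probe and array. A second deposited table held the authors' normalized intensity, made with lumi per the submitters' processing notes (version not given in the sources used here). Of 47322 probes, 1 (CDC25C) lacked values on 4 arrays and was left out. Intensities were corrected with detection p-values, quantile normalized and, after adding an offset of 16, expressed as log2 values (neqc, limma 3.58.1, R 4.3.3). The offset shrinks fold changes of dim genes. Genes needed a detection p under 0.05 on at least 2 of 6 receptor arrays and are represented by their brightest probe. Symbols were updated for 4675 probes through the RefSeq table (GRCh38.p14). Differences came from a fit of the 6 receptor arrays with treatment, and the response difference from limma's two-sided moderated test over 12 arrays with 6 means, Benjamini-Hochberg adjusted over 15007 genes. The fits were tested on simulated data. Members and gene lists were chosen with earlier results of these data known.

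Named genes were the 15 highest and 15 lowest counted ones without placeholder symbols or pseudogenes (LOC100134134, lower by more than CXCR4, and SFTA1P were left out), up to 3 counted members per list, a fixed set, the 3 smallest p each way for the response, block ends and the 5 nearest on each side of the threshold. Vehicle and estradiol arrays of 1 number correlated, in deviations from group means, at 0.77, 0.39 and 0.67 in receptor cells and 0.08, 0.04 and 0.11 in control cells. The number of arrays limits the precision. In the response fit each culture 1 mean rests on 1 array, so culture 1 adds nothing to the spread behind the p-values. That spread comes mostly from the control arrays, and otherwise from the differences between the other receptor cultures. The p-values therefore do not measure the spread within culture 1.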

Additional observations from a re-analysis of the deposited data

How the results depend on the processing

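The count of genes in culture 1 over cultures 2 and 3 was 260 here, 64 without background correction, 67 in the authors' normalized table, 115 with an offset of 50, 1217 at 1.5-fold and 57 at 3-fold. It was 183 to 260 under the other filters, with the mean of a gene's probes and with all 12 arrays in the fit. Leaving out arrays or cultures gave 216 to 439, the highest without culture 2. Of 59 named counted genes, 50 to 58 stayed counted in these, 34 without background correction, and all measured ones kept their direction. At 1.5-fold the distances were 668, 1435 and 375 genes for receptor cultures 1 and 2, 1 and 3, and 2 and 3, and 6, 16 and 11 for the control pairs. In the authors' table the receptor distances were 46, 74 and 8. There the controls were nearer culture 1 for 46.3% of counted genes, against 34.2% here. With blocks of 31 genes the highest median was 0.56, on chromosome 12, and the other block values moved less. The estradiol response called 0 genes here and 1 (APCDD1L) without background correction, in the authors' table and with an offset of 50. The cause of these shifts was not tested.

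For the response, a replicate block gave 0 called genes, as did the 6 receptor arrays alone with a replicate block. The culture contrast cannot be blocked by replicate number, since culture 1 is a number. Leaving out other arrays gave 0 each, and without a culture 1 array no response exists. Chip as a block was not run, since the files used here name no chip. Probes near the detection limit have only bounds.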
